A study of Mus musculus with 4 samples.

Results

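Chemokines and their receptors were taken as every gene of the deposited gene lists whose symbol begins with Ccl, Cxcl, Ccr or Cxcr and a digit, together with Cx3cl1, Cx3cr1, Xcl1, Xcr1 and Ackr1 to Ackr4, and without the Ccrl genes. The rule gave 67 of 32285 genes, of which 44 encode ligands and 23 encode receptors. Of the 67 genes, 47 had at least 20 unique molecular identifiers (UMIs, 1 per captured RNA molecule) in the nuclei kept, 11 had 1 to 19 and 9 had 0. The study prepared 4 mouse single-nucleus RNA libraries from mice on a high-fat diet, 1 library for each group: brown adipose tissue (BAT) after surgery, BAT after sham surgery, beige adipose tissue (BeAT) after surgery, and BeAT after sham surgery. The operation is called bariatric in the title of the study, and strain, sex, age, time after surgery and the number of mice pooled in a library are not stated in the labels. With 1 library a group no difference between groups could be tested, so every interval below covers counting error only and says nothing of the spread between mice.

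Chemokines are small secreted proteins that guide leukocytes along concentration gradients, and they act through G protein-coupled receptors on the cells that move. Homeostatic chemokines place lymphocytes in lymphoid tissue and blood cells in bone marrow, while inflammatory chemokines are switched on by cytokines and draw monocytes, eosinophils, neutrophils or T cells into a tissue. Atypical receptors bind chemokines without signalling through G proteins and remove or transport them. In obese adipose tissue the monocyte-recruiting ligands and the receptor Ccr2 are best known for bringing in macrophages.

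The 4 families are named from the spacing of the conserved cysteines near the start of the secreted protein, and 1 ligand of each, chosen because its level is described below, shows that spacing. The stretches are coding sequence from GENCODE M21 in the GRCm38 build, 5′ to 3′ on the coding strand, with the conserved cysteine codons in capitals. In all 4 the capitals start at codon 32 of the coding sequence.
Xcl1, C family, chr1:164932960-164932992, minus strand: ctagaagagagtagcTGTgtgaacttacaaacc
Ccl8, CC family, chr11:82116041-82116076, plus strand: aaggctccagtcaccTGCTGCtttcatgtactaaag
Cxcl13, CXC family, chr5:95958649-95958687, plus strand: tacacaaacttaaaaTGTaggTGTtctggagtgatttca
Cx3cl1, CX3C family, chr8:94778036-94778080, plus strand: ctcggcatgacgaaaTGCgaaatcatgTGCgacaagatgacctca
The number of codons between the cysteine codons is 0 in Ccl8, 1 in Cxcl13 and 3 in Cx3cl1, and Xcl1 has a lone cysteine here.

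The libraries held 5952 to 10445 barcodes and 23118695 to 60409801 UMIs, and 5328 to 9791 nuclei were kept, with medians of 2654 to 5173 UMIs. Nuclei were clustered without any chemokine or receptor gene and named "-like" from other marker genes, which left 5 of 35 clusters unnamed. The libraries differed in what they contained. Epithelial-like nuclei made up 62.0% of BAT surgery and 0.582% of BAT sham, with 0 in both BeAT libraries. Genes leading the largest epithelial-like cluster of BAT surgery included Wfdc8, Crisp4 and Pax2. Gpx5, a gene of epididymal epithelium, had 232349 UMIs in the BAT surgery library and 0 in each other library. B cell-like nuclei were 32.1% and T or NK-like nuclei 29.5% of BeAT surgery, against 0.471% and 2.01% of BeAT sham, and adipocyte-like nuclei were 6.25% of BAT surgery against 41.8% of BAT sham and 9.27% of BeAT surgery against 49.4% of BeAT sham. Whether surgery or dissection set these shares cannot be told apart. Ucp1, the uncoupling protein that defines brown fat, went against the brown label, with 0 UMIs in adipocyte-like nuclei of BAT surgery, 2 in BAT sham, 0 in BeAT surgery and 3 in BeAT sham. Free RNA was present: the epididymal gene Gpx5 reached 1012 CPM (UMIs of the gene per 1000000 UMIs of the class) in macrophage-like and 583 CPM in adipocyte-like nuclei of BAT surgery, with 0 UMIs in these classes of the other libraries, and the adipocyte gene Adipoq reached 10.6, 145, 13.2 and 190 CPM in macrophage-like nuclei of BAT surgery, BAT sham, BeAT surgery and BeAT sham. Pairs of libraries shared 36 to 73 barcodes.

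**Figure D1:**
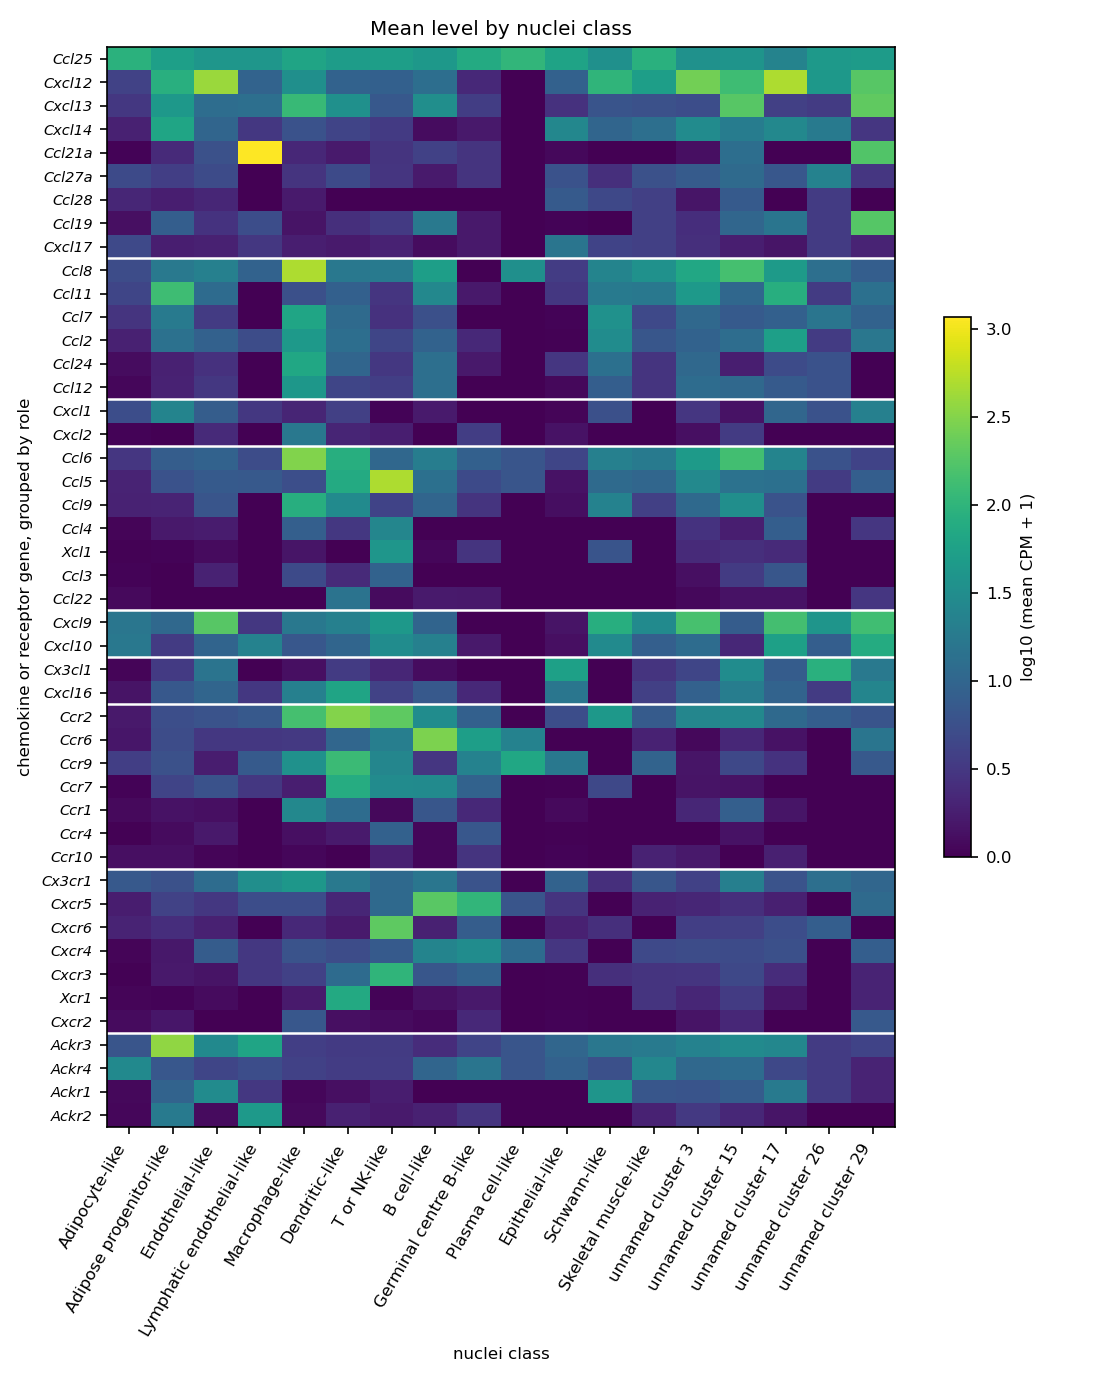
Level of chemokine and receptor genes with at least 20 UMIs (rows, grouped by role with white lines between groups) in each class or unnamed cluster of nuclei (columns), as log10(mean CPM + 1) over the libraries with at least 50 such nuclei. Ccl8, Ccl6 and Ccl24 are brightest in macrophage-like nuclei, Ackr3 and Ccl11 in progenitor-like nuclei, Ccl21a in lymphatic endothelial-like nuclei and Ccr6 in B cell-like nuclei, while Ccl25 is of similar brightness in all columns.

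The 47 genes differed in the class of nuclei that led them, by the mean over the libraries with at least 50 nuclei of a class, which are not the same libraries for every class. Macrophage-like nuclei led for the monocyte ligand Ccl8, at a mean of 483 CPM over libraries and with 75.8% of its UMIs, and also for Ccl6 (303 CPM), Ccl9 (83.1 CPM), the eosinophil ligand Ccl24 (66.8 CPM) and Ccl12 (41.5 CPM). Adipose progenitor-like nuclei, which include fibroblasts, led for Ccl11, the eosinophil ligand also called eotaxin (130 CPM), for Cxcl14 (61.9 CPM) and for the atypical receptor Ackr3, which takes up Cxcl12 (360 CPM, 79.4% of its UMIs). Cxcl12, the ligand of Cxcr4 and Ackr3, was highest in endothelial-like nuclei and unnamed cluster 17, which was large enough in the sham libraries alone: endothelial-like nuclei had 580 CPM in BAT sham and 590 CPM in BeAT sham, and cluster 17 had 455 CPM in BAT sham and 525 CPM in BeAT sham. The interferon-induced T cell ligand Cxcl9 averaged 186 CPM in endothelial-like nuclei. Ccl21a, a ligand of Ccr7 that guides cells into lymphatic vessels, averaged 1163 CPM in lymphatic endothelial-like nuclei, which held 62.5% of its UMIs.

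Receptors followed the leukocyte classes. T or NK-like nuclei led for Cxcr6 (203 CPM), Cxcr3 (101 CPM) and the ligand Ccl5 (484 CPM), and dendritic-like nuclei led for Ccr2 (316 CPM), the gut-homing receptor Ccr9 (121 CPM), the lymph node-homing receptor Ccr7 (79.0 CPM) and Xcr1, the receptor of cross-presenting dendritic cells (72.0 CPM, 80.6% of its UMIs). B cell-like nuclei led for Ccr6 (288 CPM, 77.8% of its UMIs) and for the follicle-homing receptor Cxcr5 (189 CPM). Outside the leukocytes, Ackr4, an atypical receptor that removes Ccl19, Ccl21 and Ccl25, was led by adipocyte-like nuclei (27.7 CPM, 69.4% of its UMIs). Skeletal muscle-like nuclei were close behind for Ackr4, at 25.4 CPM. Ackr4 is wholly overlapped by genes on the opposite strand, Acad11 among them, and their part in its counts was not tested. Ccl25, the ligand of Ccr9, had no class of its own: it was counted in every class, and its level in adipocyte-like nuclei was 97.5 CPM in BAT surgery, 94.1 in BAT sham, 78.0 in BeAT surgery and 86.6 in BeAT sham.

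Members with few UMIs could not be placed. Ccl17 (19 UMIs), Cxcl5 (17), Ccr3 (12), Cxcl15 (10), Ccr8 (9), Ccl26 (9), Ccl1 (6), Ccl21c (5), a copy of Ccl27a (5), Ccr1l1 (1) and Ccl20 (1) were below the minimum of 20. The 9 members with no UMI were Ccl21b and its copy, copies of Ccl21a, Ccl21c, Ccl19 and Ccl27a, Ccl27b, Cxcl3 and Cxcr1, the receptor that neutrophils use beside Cxcr2. For Ccl24 and Ccl11 the receptor Ccr3 was therefore not measurable, and neither were the Ccr4 ligand Ccl17, the Ccr6 ligand Ccl20 or the Ccl8 receptor Ccr8.

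The Ccl21 genes show why near-identical copies are uncertain here. The coding sequences of Ccl21a and Ccl21b, each 399 bases, differ at 2 positions, T84A and C194T, counted from 1 at the start of the coding sequence with the Ccl21a base first. The window around the first difference, in capitals, is printed for both genes from GENCODE M21 in GRCm38.
Ccl21a, chr4:42773732-42773762, minus strand: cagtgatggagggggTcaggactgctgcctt
Ccl21b, chr4:42255923-42255953, plus strand: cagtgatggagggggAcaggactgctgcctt
Reads within the coding sequence that miss both positions fit either gene. Introns and untranslated ends were not compared. How the submitters' counting handled reads that fit either gene is not given in the sources used here, so the Ccl21a value may hold or lack reads of its copies. Whether counting used strand is not given either. Xcl1, Ccl2, Ccl6, Ccl19, Ccl21a, Cxcl10, Cxcl17, Ackr4, Ccr10 and Cxcr6 lie wholly within a gene on the opposite strand, and 57.4% of Cx3cr1 and 52.6% of Ccr9 are overlapped by other genes.

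The plot of levels by library shows the receptors and ligands before classes are separated. A gene is called higher or lower below where it had at least 20 UMIs over both libraries, a ratio of at least 2-fold and an exact 95% counting interval without 1. In BAT surgery against BAT sham, 8 of 45 members with enough UMIs were higher, against 23.5% of 21003 genes, and 22 were lower, against 18.5% of genes, with a median log2 ratio of -0.94 for the members and 0.14 for all genes. Without epithelial, lymphoid, plasma cell and skeletal muscle nuclei the split turned. There 15 of 42 members were higher, against 3092 of 18786 genes, and 9 were lower, against 1874 genes. With median-of-ratios scaling 5 of 45 members were higher, against 4648 of 21003 genes. In BeAT surgery against BeAT sham, 17 of 47 members were higher, against 21.9% of 18437 genes, and 16 were lower, against 21.8%, with a median of -0.50 for the members and 0.04 for all genes. After thinning to 1000 UMIs a nucleus, 10 of 38 members were higher, against 3086 of 15203 genes.

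**Figure D2:**
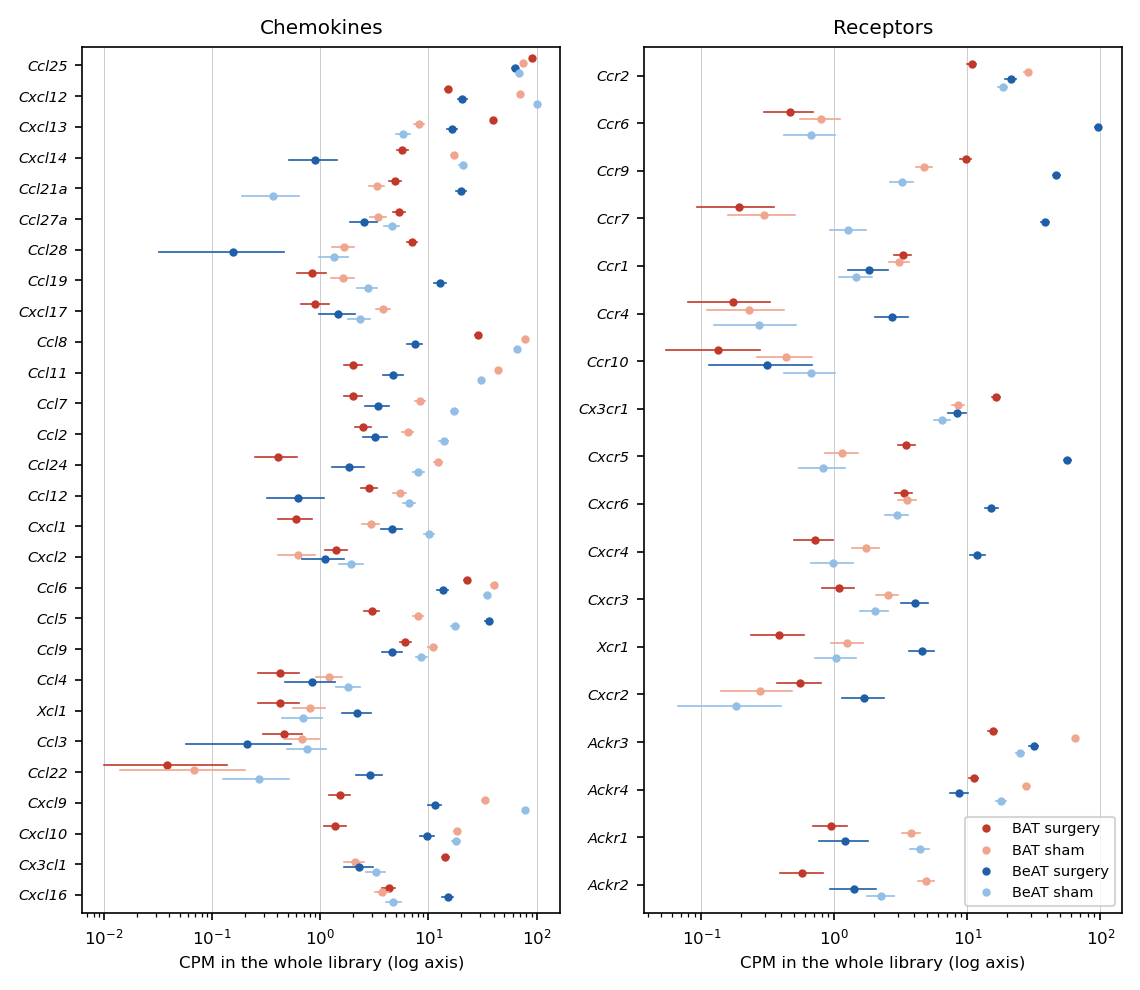
CPM of chemokine genes (left) and receptor genes (right) with at least 20 UMIs in each of the 4 libraries, on a log axis, with exact Poisson 95% intervals as bars and values of 0 not drawn. Ccr6 was at 95.3 CPM in BeAT surgery against 0.668 CPM in BeAT sham, and Cxcl13 at 39.5 CPM in BAT surgery against 8.16 CPM in BAT sham.

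In the BAT pair the ligands led the lower side. Ccl11 was at 2.01 CPM in BAT surgery against 44.1 CPM in BAT sham, and Cxcl9 at 1.51 CPM in BAT surgery against 33.2 CPM in BAT sham. Cxcl10, an interferon-induced ligand that shares the receptor Cxcr3 with Cxcl9, was at 1.38 CPM in BAT surgery against 18.4 CPM in BAT sham, and Cxcl12 at 15.2 CPM in BAT surgery against 70.8 CPM in BAT sham. Ackr3 (4.17-fold), Ackr4 (2.50-fold), Cxcl14 (3.0-fold), Ccl8 (2.76-fold) and Ccr2 (2.63-fold) were also lower. The higher side held Cxcl13, the ligand of Cxcr5, at 4.83-fold (95% interval 4.32 to 5.42), and the transmembrane ligand Cx3cl1, at 14.3 CPM in BAT surgery against 2.08 CPM in BAT sham. Of the Cx3cl1 UMIs of BAT surgery, 647 of 746 lay in epithelial-like nuclei, as did 343 of 367 of Ccl28, a ligand of mucosal epithelia. The part of the epithelial share of that library in these values was not tested.

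In the BeAT pair Ccr6, Cxcr5, Ccl21a and Ccr7 had the largest ratios of the higher side. Ccr6 had 1828 UMIs in BeAT surgery against 22 in BeAT sham, a ratio of 143 (93.9 to 228), Cxcr5 was 68.9-fold higher, Ccl21a 55.1-fold, Ccr7 30.2-fold and Ccr9 14.5-fold. Ccl5 was at 36.0 CPM in BeAT surgery against 17.7 CPM in BeAT sham. The B and T cell shares of the BeAT surgery library given above were also higher, their part in these counts was not tested, and the receptors are described within classes below. On the lower side, Cxcl14 was at 0.886 CPM in BeAT surgery against 20.7 CPM in BeAT sham, Ccl8 at 7.45 CPM in BeAT surgery against 65.4 CPM in BeAT sham, Cxcl9 at 11.4 CPM in BeAT surgery against 77.9 CPM in BeAT sham and Cxcl12 at 20.6 CPM in BeAT surgery against 101 CPM in BeAT sham. Ccl11 (6.59-fold), Ccl6 (2.56-fold) and Ackr4 (2.06-fold) were lower as well. Fewer cells of a class and less RNA per cell cannot be told apart at the level of the library.

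Classes with at least 50 nuclei in both libraries were then compared one by one. The BAT pair gave 104 gene-by-class values in 6 classes, of which 11 were higher, against 7.0% of the values of all genes, and 31 were lower, against 10.7%. The BeAT pair gave 103 values in 6 classes, of which 14 were higher, against 8.33%, and 40 lower, against 15.5%. Without the nucleus that held the most UMIs of the gene in each library, 7 of the 11 and 27 of the 31 calls of the BAT pair and 14 of the 14 and 37 of the 40 calls of the BeAT pair remained.

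Macrophage-like nuclei of BAT surgery carried Cxcl13, which those of BAT sham almost lacked. Cxcl13, which draws B cells into follicles, had 1266 UMIs or 405 CPM in 960 nuclei of BAT surgery, against 16 UMIs or 3.76 CPM in 1216 nuclei of BAT sham, a ratio of 108 (66.0 to 189). In BeAT surgery it had 44 UMIs or 52.8 CPM in 227 nuclei, against 5 UMIs or 2.62 CPM in 641 nuclei of BeAT sham, a ratio of 20.1 (8.0 to 65.0). Both surgery libraries were thus high and both sham libraries low. The UMIs were spread over nuclei: 232 of the 960 nuclei of BAT surgery (24.2%, exact 95% interval 21.5 to 27) and 8 of the 1216 of BAT sham (0.658%, 0.284 to 1.29) had at least 1, at median depths of 2948 and 3148 UMIs. After thinning every nucleus to 1000 UMIs the shares were 13.4% in BAT surgery and 0.179% in BAT sham, with 848 and 1117 nuclei deep enough. In adipocyte-like nuclei, which should lack the gene, the unthinned shares were 3.15% in BAT surgery and 0.196% in BAT sham, at median depths of 6312 and 5866 UMIs. In BeAT surgery only 12 of 227 macrophage-like nuclei held Cxcl13, against 3 of 641 in BeAT sham. Cxcr5, its receptor, had too few UMIs in these nuclei to compare.

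Of 27 members with enough UMIs in macrophage-like nuclei of the BAT pair, 4 were higher, against 6.19% of 12267 genes, and 9 were lower, against 11.7%, with a median log2 ratio of -0.59 for the members and 0.01 for all genes. Clusters 4 and 11 held 53.2% and 46.8% of these nuclei in BAT surgery, against 87.6% and 12.4% in BAT sham, so values within each cluster are given too. The receptor of Cx3cl1, Cx3cr1, was at 87.7 CPM in BAT surgery against 11.3 CPM in BAT sham, a ratio of 7.77 (5.70 to 10.8), but only cluster 11 showed it, with a ratio of 5.97 there and 0.756 in cluster 4. Cxcl13 had 779 UMIs in BAT surgery against 16 UMIs in BAT sham in cluster 4 and 487 UMIs in BAT surgery against 0 UMIs in BAT sham in cluster 11. Cxcr2, the neutrophil receptor, is named although it lies outside the rule for named genes: its 20 UMIs in BAT surgery against 1 in BAT sham came from 9 nuclei and 1 nucleus, and without the top nucleus of each library it had too few UMIs to pass.

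The lower side in the same nuclei held eosinophil and monocyte genes. Ccl24 had 14 UMIs or 4.48 CPM in BAT surgery against 467 UMIs or 110 CPM in BAT sham, 24.5-fold lower (14.5 to 45.2), and it was 17.3-fold lower within cluster 4. Ccr2, the receptor by which blood monocytes enter tissue, had 81.9 CPM in BAT surgery against 194 CPM in BAT sham, 2.36-fold lower (2.05 to 2.73), and in cluster 11 it had 148 CPM in BAT surgery against 972 CPM in BAT sham. Its ligands were not past the threshold: Ccl2 had 25.3 CPM in BAT surgery against 30.3 CPM in BAT sham, Ccl7 23.7 CPM in BAT surgery against 46.3 CPM in BAT sham and Ccl12 33.3 CPM in BAT surgery against 44.9 CPM in BAT sham. Ccl8 was 2.51-fold lower (2.32 to 2.71), at 267 CPM in BAT surgery against 668 CPM in BAT sham. Within the clusters the Ccl8 ratios were 0.628 and 0.929, neither past the threshold. Cxcl12 (6.45-fold), Cxcl9 (6.21-fold), Cxcl10 (5.70-fold), Ccl11 (15.4-fold), Cxcl14 (3.12-fold) and Ackr3 (2.94-fold) were lower in BAT surgery as well. Most UMIs of these 6 genes lay in other classes, and markers of those classes were also lower here: the summed endothelial list was 25.0 CPM in macrophage-like nuclei of BAT surgery (9 of 10 genes, Ptprb at 0) against 123 CPM in BAT sham (10 of 10), and the progenitor list, with 10 of 10 genes in both, 75.5 CPM in BAT surgery against 352 CPM in BAT sham. The part of such RNA in the 6 values was not tested. Without the top nucleus Cxcl14 and Ackr3 were not past the threshold, at ratios of 0.680 and 0.678.

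**Figure D3:**
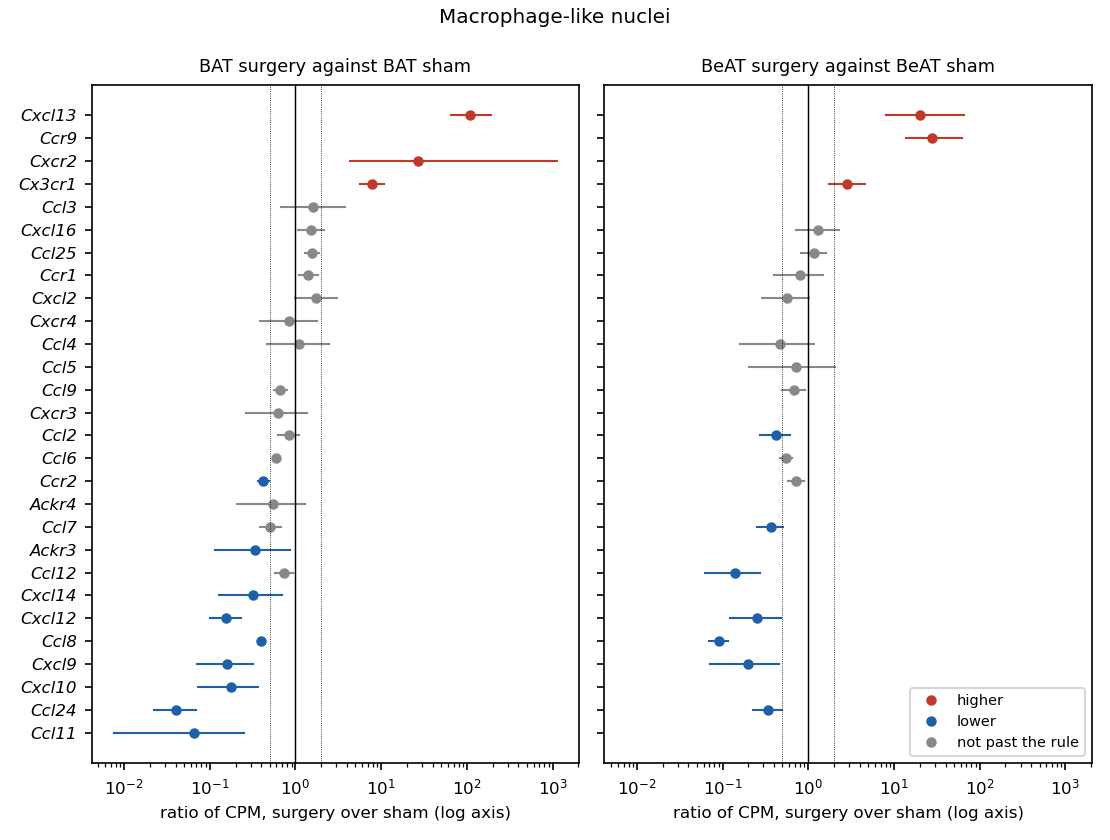
Surgery to sham ratio of CPM in macrophage-like nuclei, on a log axis, for members with at least 20 UMIs in at least 1 surgery pair, with exact 95% counting intervals as bars. Red marks higher, blue marks lower and grey marks genes not past the threshold, and dotted lines stand at ratios of 0.5 and 2. Cxcl13 lies far to the right in both pairs, at 108 in BAT and 20.1 in BeAT, and Ccl8 lies to the left in both, at 0.399 in BAT and 0.0905 in BeAT.

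In macrophage-like nuclei of the BeAT pair 3 of 20 members were higher, against 9.02% of 10082 genes, and 7 were lower, against 15.9%, with a median log2 ratio of -0.71 for the members and -0.01 for all genes. The pair rests on 227 nuclei of BeAT surgery and 641 of BeAT sham, with 33% against 63.8% of them in cluster 4. Ccl8 had 69 UMIs or 82.8 CPM in BeAT surgery against 1743 UMIs or 915 CPM in BeAT sham, 11-fold lower (8.68 to 14.3). A single BeAT sham nucleus held 309 of those UMIs, and the ratio without the top nuclei was 0.0706. Ccl12, a mouse ligand of Ccr2, was 7.14-fold lower (3.66 to 15.9), at 10.8 CPM in BeAT surgery against 77.1 CPM in BeAT sham. Both genes stayed lower within cluster 4, where Ccl8 had 216 CPM in BeAT surgery against 1493 CPM in BeAT sham and Ccl12 had a ratio of 0.117. Ccl2 (36.0 CPM in BeAT surgery against 86.1 CPM in BeAT sham), Ccl7 (48.0 CPM in BeAT surgery against 132 CPM in BeAT sham) and Ccl24 (38.4 CPM in BeAT surgery against 114 CPM in BeAT sham) were lower over the class but not past the threshold within cluster 4, at ratios of 0.522, 0.612 and 0.605. Ccr2 was at 127 CPM in BeAT surgery against 176 CPM in BeAT sham, a ratio of 0.721 that was not past the threshold. Cxcl12 (3.94-fold) and Cxcl9 (5.03-fold) were lower too.

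Ccr9 was the receptor with the largest ratio in macrophage-like nuclei of the BeAT pair. It had 108 UMIs or 130 CPM in BeAT surgery against 9 UMIs or 4.72 CPM in BeAT sham, a ratio of 27.4 (13.9 to 61.6), and all 108 lay in cluster 11. They came from 33 of 227 nuclei in BeAT surgery against 6 of 641 in BeAT sham. Its ligand Ccl25 had 64.8 CPM in BeAT surgery against 56.1 CPM in BeAT sham, not past the threshold. Cx3cr1 was at 49.2 CPM in BeAT surgery against 17.3 CPM in BeAT sham, 2.84-fold higher (1.75 to 4.64). Other markers moved in the same nuclei: the summed dendritic list, with 6 of 6 genes in both, was 629 CPM in BeAT surgery against 301 CPM in BeAT sham, and the T or NK list, with 7 of 8 genes in both and Klrb1c at 0, was 218 CPM in BeAT surgery against 21.5 CPM in BeAT sham. The B cell list was 774 CPM in BeAT surgery (6 of 6 genes) against 405 CPM in BeAT sham (4 of 6, Ms4a1 and Pax5 at 0). Their part in the Ccr9 value was not tested.

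The promoters of Cxcl13, Cxcl9 and Cxcl10 are shown because Cxcl13 had the largest ratio of the BAT pair in macrophage-like nuclei and because Cxcl9 and Cxcl10, neighbours on chromosome 5, were both lower in the BAT surgery library. Each is the 250 bases before the RefSeq start in GRCm38.p6, 5′ to 3′ on the gene's strand, with motif matches in capitals. The letters searched on both strands were TATAAA for a TATA box, GAAA followed after any 2 bases by GAAA for an interferon-type element, and GGG followed after any 2 bases by TTTCC for an NF-kB-type element, and no match overlapped another in these promoters.
Cxcl13, chr5:95956689-95956938, plus strand: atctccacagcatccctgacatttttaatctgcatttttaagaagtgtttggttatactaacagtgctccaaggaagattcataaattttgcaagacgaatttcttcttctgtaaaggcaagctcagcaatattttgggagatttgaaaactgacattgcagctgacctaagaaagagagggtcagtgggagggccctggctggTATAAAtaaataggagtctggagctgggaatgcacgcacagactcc
Cxcl9, chr5:92328080-92328329, minus strand: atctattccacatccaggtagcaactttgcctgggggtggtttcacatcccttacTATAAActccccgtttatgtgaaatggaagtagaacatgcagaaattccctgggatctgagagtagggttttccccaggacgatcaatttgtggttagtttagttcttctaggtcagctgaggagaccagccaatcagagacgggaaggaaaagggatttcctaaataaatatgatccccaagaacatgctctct
Cxcl10, chr5:92348890-92349139, minus strand: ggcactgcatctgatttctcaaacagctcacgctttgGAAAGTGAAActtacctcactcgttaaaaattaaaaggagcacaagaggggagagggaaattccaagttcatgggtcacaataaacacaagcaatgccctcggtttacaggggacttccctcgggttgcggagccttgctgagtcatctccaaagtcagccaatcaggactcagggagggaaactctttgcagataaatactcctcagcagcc
The capitals mark TATAAA in Cxcl13 and Cxcl9 and the interferon-type letters in Cxcl10. Matches were taken anywhere in the 250 bases, so the letters alone do not make a working TATA box. In Cxcl13 the TATAAA lies near the gene start, while in Cxcl9 it lies toward the far end of the stretch. Promoters of 46 of the 67 members were matched by symbol, with 53 promoters for the 46 genes. A member was counted where any of its promoters had the letters, while the percentages for all are per promoter. The member counts and those percentages are therefore in unlike units. TATAAA was in 15 of the 46 and in 12.37% of all 32851 promoters of that length, the interferon-type letters in 3 (Ccl19, Cxcl10 and Cxcl14) and in 2.977% of all promoters, and the NF-kB-type letters in 6 (Ccl9, Ccl20, Ccr3, Cxcl1, Cxcl2 and Cxcl3) and in 1.412% of all.

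In T or NK-like nuclei of BeAT surgery Ccl5, Cxcr3, Ccr2 and Cxcr6 were lower, and Ccr9, Ccr6 and Cxcr5 higher, than in those of BeAT sham. Of 18 members with enough UMIs 3 were higher, against 5.48% of 10974 genes, and 9 were lower, against 13.1%, with a median log2 ratio of -1.67 for the members and 0.01 for all genes. Ccl5, which effector T and NK cells make, had 73.9 CPM in 1570 nuclei of BeAT surgery against 1005 CPM in 196 nuclei of BeAT sham, 13.6-fold lower (11.6 to 15.9). In the BAT pair it had 317 CPM in BAT surgery against 538 CPM in BAT sham, which was not past the threshold. The BAT pair had 0 members higher and 1 lower in this class, against 4.11% and 6.41% of all genes, and that member, Ccl4, with 1 UMI in BAT surgery against 20 UMIs in BAT sham, had under 20 UMIs without the top nucleus. For Ccl5, BeAT surgery was the low library of the 4. Cxcr3, the receptor of Cxcl9 and Cxcl10, was 12.7-fold lower in BeAT surgery (8.15 to 19.7), Ccr2 5.98-fold and Cxcr6, a receptor of resident T cells that binds Cxcl16, 3.18-fold. Xcl1 was 4.30-fold lower, at 8.60 CPM in BeAT surgery against 37.0 CPM in BeAT sham. Cxcl9, Cxcl10 and Ccl4 were lower on 57, 45 and 20 UMIs over both libraries, and without the top nucleus Cxcl10 and Ccl4 had under 20 UMIs, at ratios of 0.0287 and 0.0375.

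The higher receptors in these nuclei were counted in many nuclei of BeAT surgery and few of BeAT sham. Ccr9 had 276 UMIs in 145 nuclei of BeAT surgery against 1 UMI in BeAT sham, a ratio of 20.8 (3.70 to 824). Ccr6, a receptor of B cells, Th17 cells and regulatory T cells, had 211 UMIs in BeAT surgery against 3 UMIs in BeAT sham, a ratio of 5.30 (1.79 to 25.9). Cxcr5, the receptor of B cells and follicular helper T cells, had 130 UMIs in 95 nuclei of BeAT surgery and 0 UMIs in BeAT sham, at least 3.26-fold higher when 3 UMIs are set for the sham library. Ccr7, the receptor of naive T cells, was at 62.3 CPM in BeAT surgery against 40.1 CPM in BeAT sham, not past the threshold. The make-up of the class differed: cluster 6 held 84.2% of it in BeAT surgery and 66.3% in BeAT sham. Within cluster 6 the Ccl5 ratio was 0.0368 and the Cxcr3 ratio 0.0624, and within cluster 20 they were 0.198 and 0.153, so both genes were lower in each cluster. Subset markers differed inside the clusters: Ncr1, a gene of NK cells, had 50.2 CPM in cluster 20 of BeAT surgery against 690 CPM in BeAT sham, and Foxp3, the factor of regulatory T cells, had 41.0 CPM in BeAT surgery against 10.4 CPM in BeAT sham in cluster 6. All 6 B cell markers were detected in T or NK-like nuclei of BeAT surgery, at a sum of 320 CPM, against 2 of 6 and 49.3 CPM in BeAT sham, where Ms4a1, Cd79a, Cd79b and Pax5 were at 0. Their part in the Ccr6 and Cxcr5 values was not tested.

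**Figure D4:**
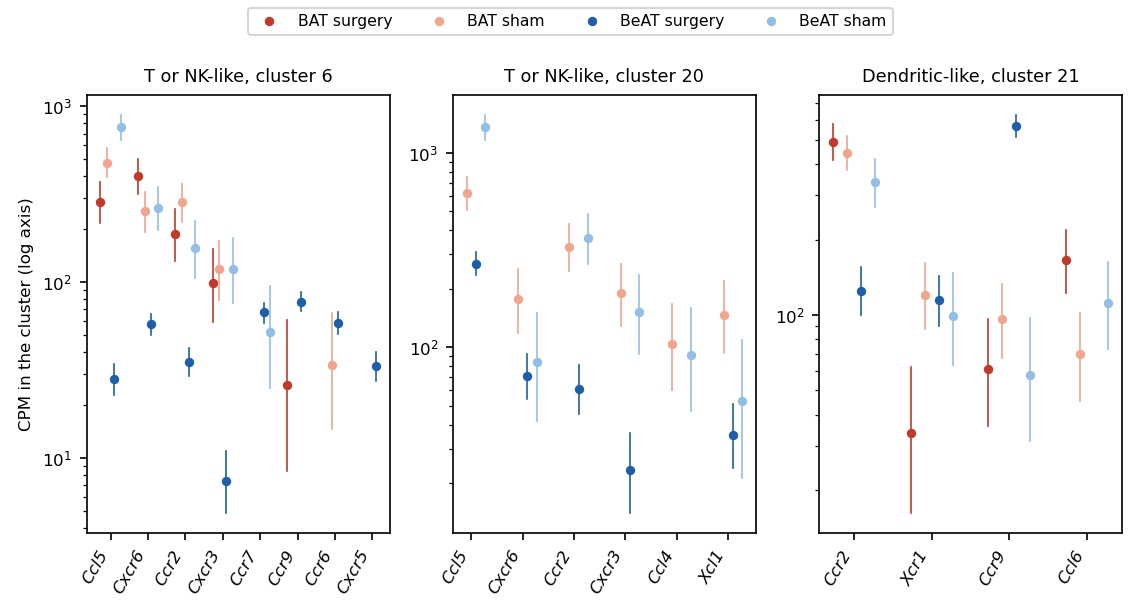
CPM of chemokine and receptor genes in T or NK-like clusters 6 and 20 and dendritic-like cluster 21 in each library, on a log axis, drawn where a library has at least 50 nuclei and 5 UMIs, with exact Poisson 95% intervals as bars. In clusters 6 and 20 the BeAT surgery points of Ccl5 lie below those of the other libraries, and in cluster 21 the BeAT surgery point of Ccr9, at 570 CPM, lies above the BeAT sham point, at 57.7 CPM.

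B cell-like nuclei numbered 26 in BAT surgery, 58 in BAT sham, 1709 in BeAT surgery and 46 in BeAT sham, so neither surgery pair could be compared at the minimum of 50. Ccr6 had 123 CPM in BAT surgery, 203 in BAT sham, 373 in BeAT surgery and 123 in BeAT sham. Cxcr5 had 143 CPM in BAT surgery, 187 in BAT sham, 191 in BeAT surgery and 147 in BeAT sham. The germinal centre B cell-like cluster, 278 nuclei of BeAT surgery, had 104 CPM of Cxcr5, 51.2 CPM of Ccr6 and 30.1 CPM of Cxcr4, which holds B cells in the dark zone of germinal centres.

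Dendritic-like nuclei split by receptor. In the BeAT pair 5 of 12 members were higher, against 11.5% of all genes, and 3 were lower, against 16.8%. Clusters 21 and 27 held 52.9% and 47.1% of the class in BeAT surgery, against 81.8% in cluster 21 in BeAT sham. Ccr9, which marks plasmacytoid dendritic cells, had 280 CPM in BeAT surgery against 50.1 CPM in BeAT sham, 5.58-fold higher (3.29 to 10.3), and 570 CPM in BeAT surgery against 57.7 CPM in BeAT sham within cluster 21. Cluster 21 was led by Siglech, a plasmacytoid gene, and also by Clec9a, a gene of cross-presenting dendritic cells, and at Leiden 0.5 the cluster led by Siglech held 82 nuclei of BeAT surgery against 3 of BeAT sham, so the make-up of cluster 21 differed too. Ccr7, by which mature dendritic cells move to lymph nodes, had 217 CPM in BeAT surgery against 85.9 CPM in BeAT sham, 2.52-fold higher (1.67 to 3.99). All 337 of its UMIs in BeAT surgery lay in cluster 27, which also had 324 CPM of Ccl5 and 224 CPM of Cxcl16, the transmembrane ligand of Cxcr6. Over the class Cxcl16 was 3.48-fold higher (1.91 to 7.08) and Ccl5 2.94-fold (1.82 to 5.02), and Ccr6 had 41 UMIs in BeAT surgery against 1 UMI in BeAT sham. Ccr2 was 5.43-fold lower (3.96 to 7.45), at 54.0 CPM in BeAT surgery against 294 CPM in BeAT sham, and Cxcl9 and Ccl6 were lower on 35 and 32 UMIs. Without the top nucleus Ccl6 had under 20 UMIs, at a ratio of 0.0202. The summed macrophage list, with 8 of 8 genes in both, was 110 CPM in these nuclei of BeAT surgery against 1897 CPM in BeAT sham, and its part in the Ccl6 and Ccr2 values was not tested.

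In the BAT pair dendritic-like nuclei gave 4 higher of 9 members, against 8.23% of all genes, and 1 lower, against 8.0%. The class was small, with 59 nuclei in BAT surgery and 92 in BAT sham, and it depended on the clustering. With the members kept in the clustering, and at the lower Leiden setting, BAT surgery fell under the minimum of 50 nuclei. The class could then not be compared. With doublets kept it remained, with 4 of 8 members higher and 1 lower. Xcr1 was 3.56-fold lower (1.77 to 7.92), at 33.2 CPM in BAT surgery against 118 CPM in BAT sham. Its ligand Xcl1 had 0 UMIs in both libraries in this class. Ccl6 had 162 CPM in BAT surgery against 68.2 CPM in BAT sham, Ccl9 56.4 CPM in BAT surgery against 18.4 CPM in BAT sham and Cxcl13 40 UMIs in BAT surgery against 0 UMIs in BAT sham. Without the top nucleus both Ccl9 and Cxcl13 had under 20 UMIs, with a Ccl9 ratio of 2.50 (0.846 to 8.22), and 32 of the 40 Cxcl13 UMIs lay in 1 nucleus. The macrophage list, with 8 of 8 genes in both, was 5965 CPM here in BAT surgery against 1563 CPM in BAT sham, and Ccl6 and Ccl9 were genes that macrophage-like nuclei led. Its part in these values was not tested.

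Adipose progenitor-like nuclei had fewer eotaxin and Cxcl14 transcripts after surgery in both pairs, while Ackr3 went opposite ways. In the BAT pair 0 of 22 members were higher and 8 lower, against 9.66% and 10.7% of all genes, and in the BeAT pair 1 of 17 was higher and 10 were lower, against 6.53% and 15.6%. Ccl11 had 27.7 CPM in BAT surgery against 209 CPM in BAT sham, 7.55-fold lower (5.81 to 9.99), and 63.6 CPM in BeAT surgery against 220 CPM in BeAT sham, 3.46-fold lower (2.55 to 4.81). Cxcl14, a ligand of epithelia and fibroblasts, was 13.4-fold lower (7.76 to 25.3) in the BAT pair, at 6.20 CPM in BAT surgery against 82.9 CPM in BAT sham, and 17.3-fold lower (7.87 to 47.3) in the BeAT pair, at 8.67 CPM in BeAT surgery against 150 CPM in BeAT sham. Both surgery libraries were below both sham libraries for these 2 genes. Within cluster 14 of the BAT pair Ccl11 was 4.07-fold and Cxcl14 12.5-fold lower, and within cluster 7 of the BeAT pair Ccl11 was 7.55-fold and Cxcl14 9.79-fold lower. Ccr3, the eotaxin receptor, was too rare to place.

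Ackr3 had 123 CPM in BAT surgery against 372 CPM in BAT sham, 3.02-fold lower (2.66 to 3.44), and 725 CPM in BeAT surgery against 222 CPM in BeAT sham, 3.27-fold higher (2.91 to 3.68). After thinning to 1000 UMIs, 8.89% of progenitor-like nuclei held it in BAT surgery against 25.1% in BAT sham, and 38.9% in BeAT surgery against 14.0% in BeAT sham, where the unthinned shares were 20.1% in BAT surgery, 47.8% in BAT sham, 52.6% in BeAT surgery and 26.6% in BeAT sham. The clusters behind the class differed. Cluster 14 held 96.3% of it in BAT surgery, while cluster 7 held 51.5% in BAT sham. In BeAT surgery clusters 13, 7 and 14 held 42.1%, 35.1% and 22.8%, against 68.7% in cluster 7 in BeAT sham. Within cluster 14 Ackr3 had 112 CPM in BAT surgery against 210 CPM in BAT sham, a ratio of 0.531 that was not past the threshold. Within cluster 13 it had 1316 CPM in BeAT surgery against 544 CPM in BeAT sham, 2.42-fold higher, and within cluster 7 the ratio was 1.25, not past the threshold. Its ligand Cxcl12 was at 72.0 CPM in BAT surgery against 84.4 CPM in BAT sham, not past the threshold over the class, and 3.03-fold lower within cluster 14. In the BeAT pair Cxcl12 was 4.55-fold lower (3.0 to 7.26), at 33.2 CPM in BeAT surgery against 151 CPM in BeAT sham.

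The other progenitor calls were all lower. In the BAT pair Ackr2 (3.11-fold), Ackr1 (3.47-fold), Ccl7 (4.07-fold), Ccl8 (2.27-fold) and Cxcl9 (11.6-fold) were lower. Ackr2 and Ackr1 are the atypical receptors that take up many inflammatory chemokines. In the BeAT pair Ccl7 (3.68-fold), Ccl2 (4.29-fold), Cxcl13 (2.48-fold), Ccl8 (2.22-fold), Ccl19 (3.65-fold) and Cxcl16 (at least 2.13-fold) were lower, and Cxcl9 had 0 UMIs in BeAT surgery against 82 in BeAT sham, at least 6.24-fold lower. A single BeAT sham nucleus held 51 of the 94 Ccl2 UMIs. Cxcl1, a neutrophil ligand, was at 50.6 CPM in BeAT surgery against 34.6 CPM in BeAT sham, not past the threshold.

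**Figure D5:**
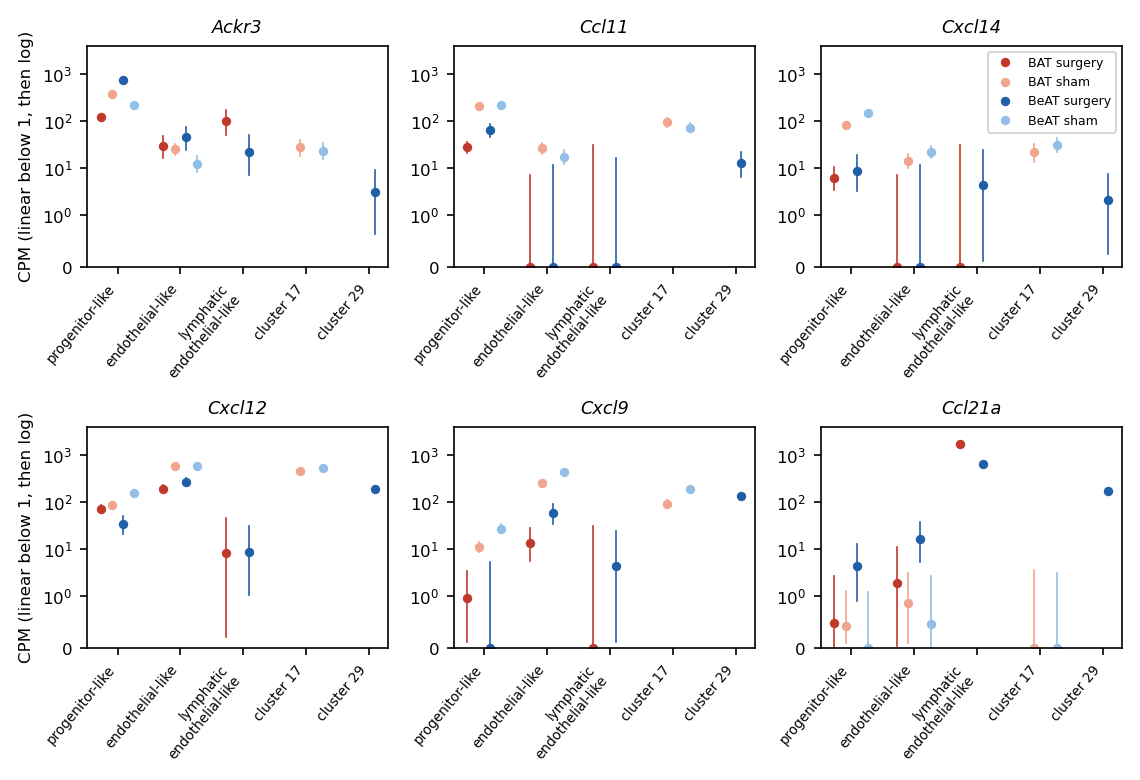
CPM of Ackr3, Ccl11, Cxcl14, Cxcl12, Cxcl9 and Ccl21a in progenitor-, endothelial- and lymphatic endothelial-like nuclei and in unnamed clusters 17 and 29, for each library with at least 50 such nuclei, on an axis that is linear below 1 CPM and logarithmic above. Ackr3 in progenitor-like nuclei is highest in BeAT surgery, at 725 CPM, and lowest in BAT surgery, at 123 CPM, and Cxcl9 in endothelial-like nuclei is at 13.5 and 56.9 CPM in BAT surgery and BeAT surgery and 252 and 421 CPM in BAT sham and BeAT sham.

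Endothelial-like nuclei had less Cxcl9 and Cxcl12 after surgery in both pairs. Cxcl9 had 13.5 CPM in BAT surgery against 252 CPM in BAT sham, 18.7-fold lower (9.02 to 46.7), and 56.9 CPM in BeAT surgery against 421 CPM in BeAT sham, 7.39-fold lower (4.65 to 12.5). Cxcl12 had 187 CPM in BAT surgery against 580 CPM in BAT sham, 3.11-fold lower (2.53 to 3.86), and 266 CPM in BeAT surgery against 590 CPM in BeAT sham, 2.22-fold lower (1.78 to 2.80). Within cluster 9, which held 64.5% to 85.7% of the class, Cxcl12 was 2.77-fold lower in the BAT pair, and its ratio of 0.589 in the BeAT pair was not past the threshold. Cxcl9 stayed lower there, 16.3-fold in the BAT pair and 5.24-fold in the BeAT pair. Cxcr4, the signalling receptor of Cxcl12, was rare in endothelial-like nuclei, with 3 UMIs in BAT surgery against 25 in BAT sham and 2 in BeAT surgery against 9 in BeAT sham.

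The other endothelial calls were few: 1 of 15 members was higher and 4 lower in the BAT pair, against 6.51% and 12.9% of all genes, and 1 of 16 was higher and 5 lower in the BeAT pair, against 13.9% and 18.6%. Cxcl13 was 31.2-fold higher in BAT surgery (9.31 to 163) on 21 UMIs in BAT surgery against 3 UMIs in BAT sham, at 40.4 CPM where macrophage-like nuclei of the same library had 405 CPM. Gpx5 was at 2726 CPM in these endothelial-like nuclei, and the part of free RNA in the Cxcl13 value was not tested. Ackr3 was 3.62-fold higher in BeAT surgery (1.75 to 7.18), at 44.3 CPM in BeAT surgery against 12.3 CPM in BeAT sham. Ccl11 and Cxcl14 had 0 UMIs in both surgery libraries, and Ccl6 had 0 UMIs in BeAT surgery against 37 in BeAT sham. The summed progenitor list in endothelial-like nuclei, with 9 or 10 of 10 genes detected and Pdgfra at 0 in BeAT surgery, was 349 CPM in BAT surgery against 1045 CPM in BAT sham, and 221 CPM in BeAT surgery against 1008 CPM in BeAT sham, and its part in the Ccl11 and Cxcl14 values was not tested. Ackr1, a marker of venules, was at 38.5, 26.8, 25.3 and 26.4 CPM in BAT surgery, BAT sham, BeAT surgery and BeAT sham.

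Lymphatic endothelial-like nuclei and 3 unnamed clusters carried further homeostatic ligands. Ccl21a in lymphatic endothelial-like nuclei was 1700 CPM in 52 nuclei of BAT surgery, 1407 in 37 of BAT sham, 626 in 75 of BeAT surgery and 214 in 14 of BeAT sham, and no pair had 50 nuclei in both libraries. Unnamed cluster 29, with 170 nuclei in BeAT surgery and 0 in every other library and with markers of both lymph node stroma and pericytes, carried 204 CPM of Cxcl13, 185 CPM of Cxcl12, 182 CPM of Ccl19 and 171 CPM of Ccl21a, together with 132 CPM of Cxcl9 and 76.6 CPM of Cxcl10. Ccl19 and Ccl21a are the ligands of Ccr7, and Cxcl13 that of Cxcr5, the receptors that were higher in the BeAT surgery library. Unnamed cluster 15, with 755 nuclei in BAT surgery alone and led by Saa3, Defb15 and Rmst, had 183 CPM of Cxcl13, 144 CPM of Ccl8, 136 CPM of Ccl6 and 128 CPM of Cxcl12, and 1 nucleus held 118 of its 459 Cxcl13 UMIs. Unnamed cluster 17, led by Rgs5, Myl9 and Aspn, had at least 50 nuclei in the sham libraries alone, with 455 CPM of Cxcl12 in BAT sham and 525 CPM in BeAT sham.

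In adipocyte-like nuclei the interferon-induced ligands and Ackr4 were the calls with the most UMIs. The class was made of different clusters, with cluster 18 holding 92.1% in BAT surgery against clusters 2 and 1 with 58.9% and 41.0% in BAT sham, and cluster 2 holding 84.6% in BeAT surgery against cluster 1 with 67.3% in BeAT sham. Ackr4 had 16.6 CPM in BAT surgery against 42.0 CPM in BAT sham, 2.53-fold lower (1.95 to 3.33), and 26.2 CPM in both BeAT libraries. Cxcl9 had 1.94 CPM in BAT surgery against 17.1 CPM in BAT sham and 5.78 CPM in BeAT surgery against 34.9 CPM in BeAT sham. Cxcl10 was 3.43-fold lower (2.34 to 5.25) in BAT surgery, at 7.48 CPM in BAT surgery against 25.7 CPM in BAT sham, and was 13.2 CPM in BeAT surgery against 16.6 CPM in BeAT sham, not past the threshold. In all, 2 of 23 members were higher and 8 lower in the BAT pair, against 6.21% and 11.1% of all genes, and 1 of 20 was higher and 6 lower in the BeAT pair, against 5.57% and 14.2%. Ackr3 was the higher member in the BeAT pair, with 52 UMIs in 10 nuclei of BeAT surgery, 24 of them in 1 nucleus. In the BAT pair the higher members were Cxcl13, with 24 UMIs in BAT surgery against 8 UMIs in BAT sham at a ratio of 21, and Ackr3, 2.18-fold higher and at 1.31 without the top nucleus.

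The remaining adipocyte calls were lower and rested on few UMIs in the surgery libraries. In BAT surgery Ccl11, Cxcl1, Ccl5 and Ccl7 had 0 UMIs, against 193, 88, 66 and 59 UMIs in BAT sham, which makes Ccl11 at least 9.18-fold, Cxcl1 at least 4.19-fold, Ccl5 at least 3.14-fold and Ccl7 at least 2.81-fold lower. A single BAT sham nucleus held 46 of the 66 Ccl5 UMIs, and that call was lost without it. Ccr9 was 2.55-fold lower in BAT surgery. In the BeAT pair Ccl11 had 2 UMIs in BeAT surgery against 106 UMIs in BeAT sham and Ccl7 1 UMI in BeAT surgery against 105 UMIs in BeAT sham, and Ccl8 (3.67-fold), Ccl6 (3.59-fold) and Cxcl12 (2.26-fold) were lower. The summed progenitor list in adipocyte-like nuclei, with 10 of 10 genes in every library, was 241 CPM in BAT surgery against 442 CPM in BAT sham and 294 CPM in BeAT surgery against 379 CPM in BeAT sham, and its part in these values was not tested.

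The sham libraries, each of which also stands in 1 of the surgery pairs, were compared with each other for the tissue label. Over 7 classes, 7 of 120 gene-by-class values were higher in BAT sham than in BeAT sham, against 3.76% of the values of all genes, and 25 were lower, against 3.69%. Without the top nucleus 5 and 19 of these calls remained. In macrophage-like nuclei Cxcl2, a neutrophil ligand, had the lowest ratio, at 5.88 CPM in BAT sham against 29.9 CPM in BeAT sham, 5.09-fold lower, and 9.69-fold lower without the top nucleus. The monocyte ligands Ccl2 and Ccl7 were lower on more UMIs. Ccl2 had 30.3 CPM in BAT sham against 86.1 CPM in BeAT sham, 2.84-fold lower (2.24 to 3.60), and Ccl7 46.3 CPM in BAT sham against 132 CPM in BeAT sham, 2.85-fold lower (2.36 to 3.46). Ccl4 (4.31-fold), Ccl5 (3.57-fold) and Ccl3 (2.97-fold) were lower on 26 to 44 UMIs, and Ccl5 lost its call without the top nucleus, at a ratio of 0.349 (0.110 to 1.05). Within cluster 4 the Ccl2 and Ccl7 ratios were 0.267 and 0.253, and Ccl12 (0.412) and Ccl4 (0.218) were lower there too. Progenitor-like nuclei had the same order for Ccl2 (8.64 CPM in BAT sham against 31.0 CPM in BeAT sham), Ccl7 (11.7 CPM in BAT sham against 42.5 CPM in BeAT sham) and Cxcl1 (3.46 CPM in BAT sham against 34.6 CPM in BeAT sham). Cxcl9 was lower in adipocyte-, progenitor-, macrophage-, dendritic-, T or NK- and Schwann-like nuclei of BAT sham, for example at 17.1 CPM in BAT sham against 34.9 CPM in BeAT sham in adipocyte-like nuclei, and without the top nucleus the macrophage ratio was 0.581, not past the threshold, while the dendritic ratio was 0.245 on under 20 UMIs. The other lower values of BAT sham were Cxcl1 (2.51-fold) and Ccl7 (2.20-fold) in adipocyte-like nuclei, Ccl5 (5.23-fold), Cx3cl1 (3.66-fold) and Ccl19 (2.56-fold) in progenitor-like nuclei, Ccl5 (4.90-fold) and Cxcl10 (2.44-fold) in endothelial-like nuclei, Ccr7 (6.55-fold) in dendritic-like nuclei and Cxcl12 (3.99-fold) in Schwann-like nuclei. Cxcl10 in T or NK-like nuclei had 1 UMI in BAT sham against 38 UMIs in BeAT sham. Of these, the progenitor Ccl5, dendritic Ccr7 and T or NK Cxcl10 calls had too few UMIs without the top nucleus.

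The higher values of BAT sham were fewer. Ackr3 was 2.60-fold higher over the library (2.40 to 2.81), at 64.5 CPM in BAT sham against 24.8 CPM in BeAT sham, and 2.01-fold in endothelial-like nuclei. Cxcl10 in macrophage-like nuclei had 62 UMIs in BAT sham, 29 of them in 1 nucleus, against 7 in BeAT sham. Ccr2 within macrophage-like cluster 11 had 972 CPM in BAT sham against 297 CPM in BeAT sham, a ratio of 3.28, while over the whole class it was 194 CPM in BAT sham against 176 CPM in BeAT sham. Ackr4 in progenitor-like nuclei was 2.37-fold higher (1.27 to 4.81). Cxcr6 (3.02-fold) and Ccl5 (2.14-fold, 0.675 without the top nucleus) in adipocyte-like nuclei and Cxcr4 (2.55-fold) in endothelial-like nuclei were also higher, and the Ccr2 call in Schwann-like nuclei rested on 22 UMIs of 1 BAT sham nucleus.

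Other genes of the chemokine pathway, a list of 56 genes of which 54 were in the table and none is a chemokine or chemokine receptor, are given beside the members. Most are signalling genes, but the list also holds the proteases Dpp4, Adam10 and Adam17, and Dpp4 is a progenitor marker too. In the BAT libraries 5 of 54 were higher and 6 lower, against 23.5% and 18.5% of all genes, with a median log2 ratio of -0.09. In the BeAT libraries 32 of 54 were higher and 0 lower, against 21.9% and 21.8% of all genes, with a median of 1.25 against 0.04 for all genes. Vav1, an exchange factor of leukocytes, was 12.4-fold higher in the BeAT surgery library and 2.01-fold higher in its macrophage-like nuclei, and the part of the lymphocyte share in the library value was not tested. Within macrophage-like nuclei 6 of 53 were higher and 1 lower in the BAT pair, against 6.19% and 11.7% of all genes, where Rgs1, which damps chemokine receptor signals, had a ratio of 5.50. In the BeAT pair 10 of 53 were higher and 4 lower, against 9.02% and 15.9%, in nuclei where the T or NK marker list was also higher as given above. Within T or NK-like nuclei of the BeAT pair 3 of 53 were higher and 4 lower, against 5.48% and 13.1% of all genes, with Rasgrp2, an activator of integrin signalling, at 3.88 and Gnai2, a G protein subunit that chemokine receptors use, at 0.449.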

How the data were processed

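The deposited files were gene-by-barcode matrices of UMI counts, 1 for each of 4 libraries, which the authors had made from droplet libraries prepared with a SeekGene protocol, per the labels' protocols. The labels name nuclear RNA, while their protocol describes digestion of the tissue. The submitters' processing notes name the mm10 genome build and Seurat 4.4.0 and 4. The aligner, counter, use of intronic reads, strand and handling of reads from repeated genes were not given in the sources used here, and each can move a gene's count. Barcodes under 500 UMIs or 300 genes, or over 10% mitochondrial UMIs, were dropped (3 to 34 per library), and doublets were scored with scanpy's Scrublet: 7.88% of BAT surgery and 10.4% of BeAT surgery by its automatic threshold, and the highest 6% of both sham libraries, where that threshold marked at most 0.0096%.

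Clustering (scanpy 1.11.5, Python 3.11.15, 2000 variable genes, 30 principal components, 15 neighbours, Leiden 1.0) left out all 67 members. Clusters were named from 21 marker lists. After the data were seen, erythroid markers were no longer allowed to block a name. Epithelial-like nuclei were then also left out of class comparisons, because no cluster held most of them in both BAT libraries. UMIs were summed per library and class and scaled to 1000000 UMIs of the class (CPM). Ratios carry exact conditional binomial intervals, levels exact Poisson intervals and shares exact Clopper-Pearson intervals, all at 95%. UMIs of 1 nucleus are not independent, so these intervals are too narrow. The rule called a gene at 20 or more UMIs over both libraries, 2-fold and an interval without 1, was tested on simulated counts, and was run on every gene for the shares of all genes. In each class the called members were named, up to the 12 with the most UMIs, some with their receptor or ligand. A count of 0 was set to 3 UMIs per library for a bound. Members, gene lists and classes were chosen with earlier results of these data known, and the motifs after the data were seen. Gene positions and coding sequences are from GENCODE M21 and promoter sequences from RefSeq, all GRCm38. No p-value is given because each group is 1 library. Some genes that entered the counts are not reported here by name and are left out of the plots.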

Additional observations from a re-analysis of the deposited data

Results flagged for a closer look

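A set of 7 genes was past the threshold in opposite directions in the BeAT and BAT pairs, and with 1 library a group none of these differences between tissues was tested. Ackr3 in adipose progenitor-like nuclei was 3.27-fold higher in BeAT surgery than in BeAT sham and 3.02-fold lower in BAT surgery than in BAT sham, so its log2 ratio in the BeAT pair exceeded that in the BAT pair by 3.3. In BAT surgery 96.3% of these nuclei lay in cluster 14, where the BAT ratio was 0.531 and not past the threshold. Ccl6 in dendritic-like nuclei was lower in BeAT surgery and higher in BAT surgery, with a difference in log2 ratio of -6.54, and without the top nucleus its BeAT ratio was 0.0202 on under 20 UMIs. Over whole libraries the difference in log2 ratio was 4.9 for Cxcr4, 3.84 for Xcr1, 2.43 for Ccl5 and 2.23 for Cxcr3, all higher in BeAT surgery and lower in BAT surgery, and -5.19 for Ccl28, which was lower in BeAT surgery and higher in BAT surgery. Lymphocyte-like nuclei were more frequent in BeAT surgery and epithelial-like nuclei in BAT surgery, and their part in the library values was not tested.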

How the results depend on the processing

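Of 88 counts recomputed under alternatives, 71 stayed within 1.5 times and 17 moved further. Counts have no sign and so could not reverse. No paired analysis was possible because each group is 1 library, and no library could be left out for the same reason. Among values within classes, a minimum of 50 UMIs left 5 higher in the BAT pair and 14 lower in the sham pair, no minimum gave 28 higher in the BeAT pair, and 1.5-fold gave 13 higher in the sham pair, as looser or stricter rules must. Median-of-ratios scaling left 5 members higher in the BAT libraries. Clustering with the members kept, Leiden 0.5, and leaving out the nucleus with the most UMIs each left 7 higher in the BAT pair. With the members kept and at Leiden 0.5, dendritic-like nuclei of BAT surgery were under 50 and dropped out of the BAT pair. That class had given 4 of the 11 higher values in the main setting. Thinning to 1000 UMIs, which left out 632 to 1465 nuclei per library and lowers every count, gave 10 members higher in the BeAT libraries, and within classes 3 higher and 15 lower in the BAT pair, 7 and 19 in the BeAT pair and 3 and 10 in the sham pair. Without epithelial, lymphoid, plasma cell and skeletal muscle nuclei, 15 of 42 members were higher and 9 lower in the BAT libraries, so that split depends on those nuclei. Among all 18786 genes in that setting, 3092 were higher and 1874 lower. The cause of the other moves was not tested. Comparison within single macrophage-like clusters was an alternative chosen after seeing the data, like that on the top nucleus. In the BAT pair 2 members were higher in cluster 4, and 8 were higher and 5 lower in cluster 11. In the BeAT pair 1 was higher in cluster 4. Shares of all genes within these clusters are not given here. The leading class was unchanged for 44 of 47 members when members were kept in the clustering, with unnamed clusters counted as 1 class, and for 38 of 47 in the library with the most UMIs alone.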
